A study of Sus scrofa with 6 samples.

Results

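The thin filament of the cardiac sarcomere was described here by 10 genes taken from the 13288 genes of the deposited table: the sarcomeric actins ACTC1 and ACTA1, the tropomyosins TPM1, TPM2 and TPM3, the troponins TNNT2, TNNI3, TNNI1 and TNNC1, and the leiomodin LMOD2. They were chosen by name and by their place in the filament, with earlier results of these data known. RNA was sequenced from ventricular tissue of male Tibetan minipigs at week 12 after surgery. In 3 minipigs the descending aorta had been constricted with a suture (the DAC group), which loads the left ventricle with pressure, and 3 minipigs had a thoracotomy without constriction (the sham group). All 6 were of 1 breed and sex, with no genetic change, and their age is not given in the sources used here. The labels call the samples of a group independent and do not name the ventricle or the wall layer that was taken. The minipigs are named Sham 1 to Sham 3 and DAC 4 to DAC 6.

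In the thin filament, actin monomers form a helical polymer, tropomyosin coils lie end to end along it, and a troponin complex sits on each tropomyosin. Troponin C binds calcium, troponin I holds the filament off, and troponin T ties both to tropomyosin. When calcium binds, tropomyosin moves across actin and myosin heads can attach. Several of these proteins exist as isoforms that are exchanged as the heart matures: the fetal heart uses slow skeletal troponin I (TNNI1) before cardiac troponin I (TNNI3), and the balance of cardiac (ACTC1) and skeletal (ACTA1) actin varies with species, age and load. Leiomodin 2 nucleates actin and lengthens the filament at its pointed end, the end that faces the middle of the sarcomere.

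The values are FPKM, fragment numbers divided by transcript length and by library size. Levels can thus be compared between genes as far as the transcript lengths used are right. The sum over all genes was 281377 to 308771 FPKM a sample, and the read depth is unknown, so the spread between minipigs is the only measure of precision. The 13 mitochondrially encoded genes held 24.0% to 25.3% of the sum in the sham samples and 27.1% to 32.8% in the DAC samples, the highest in DAC 5. The 9 ventricular markers measured summed to 9579 to 9756 FPKM in sham and 8757 to 9838 FPKM in DAC samples, a sum in which MYL2, the ventricular light chain, was the largest part. The mean of 8 of the 9 was lower in DAC, with a median log2 difference of -0.13, and 1 was called lower by the test used below (RYR2, the calcium release channel, -0.41, adjusted P = 0.585), where 5.27% of all genes tested were. Of 8 fibroblast markers, 5 were higher in DAC by the same test, where 3.25% of all genes tested were, and their sum was 482 to 555 FPKM in sham against 688 to 780 FPKM in DAC. In bulk tissue, fewer cells of a type and less RNA per cell cannot be told apart. No sequencing batch is named in the labels.

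The thin filament transcripts were among the most abundant of the ventricle, and none of them differed between DAC and sham minipigs beyond the spread within the groups. For each gene the difference is DAC minus sham in mean log2(FPKM + 1), with its standard error (SE) and limma's moderated test, and a gene was called at an unadjusted P under 0.05, the threshold of the study. Of the 10 genes, 9 passed the filter of 1 FPKM in 3 samples, and 0 of these 9 were called. Over all 11029 genes tested, 8.51% were called, 3.25% as higher and 5.27% as lower in DAC. The means of 6 of the 9 genes were higher and those of 3 were lower in DAC, with a median log2 difference of 0.04 against -0.02 over all genes tested. Their P lay between 0.182 and 0.945, and their adjusted P (Benjamini-Hochberg over all genes) between 0.699 and 0.988. In 0 of the 9 did the DAC samples lie apart from the sham samples, where 14.9% of all genes tested had groups that did not overlap. No gene of the whole table reached an adjusted P under 0.05; the smallest was 0.106. The SE of the 9 genes was 0.10 to 0.31 against a median of 0.14 over all genes. Differences of the size of these standard errors could not be detected with 3 minipigs a group, and larger ones could also be missed. The 95% interval was -0.27 to 0.20 for TNNC1, with the smallest SE, and -0.27 to 1.18 for ACTC1, with the largest. The ACTC1 difference of 0.45 exceeded its SE of 0.31 and was not called.

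The levels differed widely between the genes. Over the 6 samples TNNT2 averaged 4538 FPKM and was the gene of rank 7 in the table, followed by TNNC1 with 2237 (rank 16), ACTA1 with 1924 (rank 19) and ACTC1 with 1316 (rank 21). TPM2 averaged 736 FPKM (rank 30), TNNI3 729 (rank 31), LMOD2 492 (rank 53) and TPM1 298 (rank 85). TPM3 averaged 7.61 FPKM and TNNI1 0.862 FPKM. TNNT2 lay above TNNC1 in 6 of 6 samples, with ranges that did not overlap, and so did TNNI3 above LMOD2 and LMOD2 above TPM1. The neighbours in between were less distinct: TNNC1 exceeded ACTA1 in 5 of 6 samples, ACTA1 exceeded ACTC1 in 5 of 6, and TPM2 exceeded TNNI3 in 3 of 6, each with overlapping ranges.

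**Figure D1:**
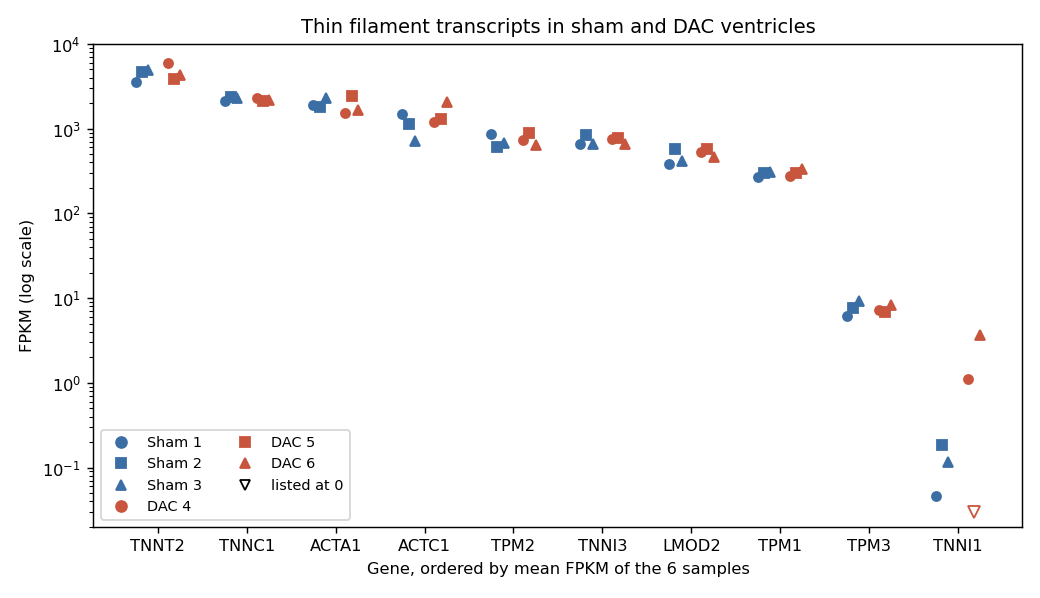
FPKM (log axis) of the 10 thin filament genes, ordered by their mean over the 6 samples, with each point 1 minipig, sham in blue and DAC in red. Sham and DAC points overlap for every gene; TNNI1 is above 1 FPKM in DAC 4 and DAC 6 alone and is listed at 0 in DAC 5 (open triangle, placed at the foot of the axis).

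Cardiac actin was the most variable of the abundant members. ACTC1 (ENSSSCG00000004803, chromosome 1, 136281167 to 136286545, plus strand, genome build susScr11) had 1497, 1150 and 716 FPKM in Sham 1 to 3 and 1201, 1293 and 2039 FPKM in DAC 4 to 6. Sham 3 was the lowest and DAC 6 the highest sample, 2.85 times apart, and Sham 1 lay above both DAC 4 and DAC 5. The group means were 1121 ± 391 FPKM in sham and 1511 ± 459 FPKM in DAC (SD, n = 3 each), a log2 difference of 0.45 with an SE of 0.31 (95% interval -0.27 to 1.18, limma, adjusted P = 0.699). The difference was 0.16 without Sham 3, 0.22 without DAC 6 and 0.69 without Sham 1. Among the 314 genes with a mean of at least 100 FPKM, ACTC1 had the spread of rank 7, with a within-group SD of 0.48 on the log2 scale against a median of 0.17.

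ACTA1, the actin of skeletal muscle that ventricles also make, was the more abundant actin in 5 of 6 minipigs. Its row has no symbol in the deposited table and was named from the gene identifier ENSSSCG00000010190 (chromosome 14, 60412671 to 60459003, plus strand). This gene model spans 46333 bases and overlaps ACTA1 of the RefSeq annotation, which lies at 60412651 to 60415687. The sham samples had 1882, 1822 and 2278 FPKM and the DAC samples 1518, 2405 and 1643 FPKM. The DAC samples held both the lowest and the highest value, and the log2 difference was -0.13 with an SE of 0.19 (95% interval -0.58 to 0.33, limma, adjusted P = 0.870). Without DAC 5, the sample with most ACTA1, it was -0.33 and was called by limma, and without DAC 4 it was 0.0024. The gene model also overlaps CCSAP on the same strand, which had 1.45 to 2.75 FPKM. The transcript length used for ACTA1 is not given in the sources used here. Its level against other genes, including ACTC1, is thus less certain.

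The actins together were steadier than either of them. Their sum was 3379, 2971 and 2994 FPKM in the sham samples and 2719, 3697 and 3681 FPKM in the DAC samples. ACTA1 made up 55.7%, 61.3% and 76.1% of that sum in Sham 1 to 3 and 55.8%, 65.0% and 44.6% in DAC 4 to 6. Sham 3 and DAC 6 stood at the ends of this range, and the other minipigs of both groups lay between 55.7% and 65.0%. As a ratio, ACTA1/ACTC1 was 1.26, 1.58 and 3.18 in sham and 1.26, 1.86 and 0.806 in DAC. The log2 difference of the ratio was -0.58 with an SE of 0.53 (exact two-sided permutation test, P = 0.5, n = 3 against 3). It was -0.19 without Sham 3, -0.27 without DAC 6 and -0.88 without DAC 5. Such a test of 3 against 3 minipigs cannot give a P under 0.1. The coding sequences of ACTC1 and ACTA1 are nearly identical, and how the authors assigned reads that match both is not given in the sources used here, so the split between them is less certain than the sum.

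**Figure D2:**
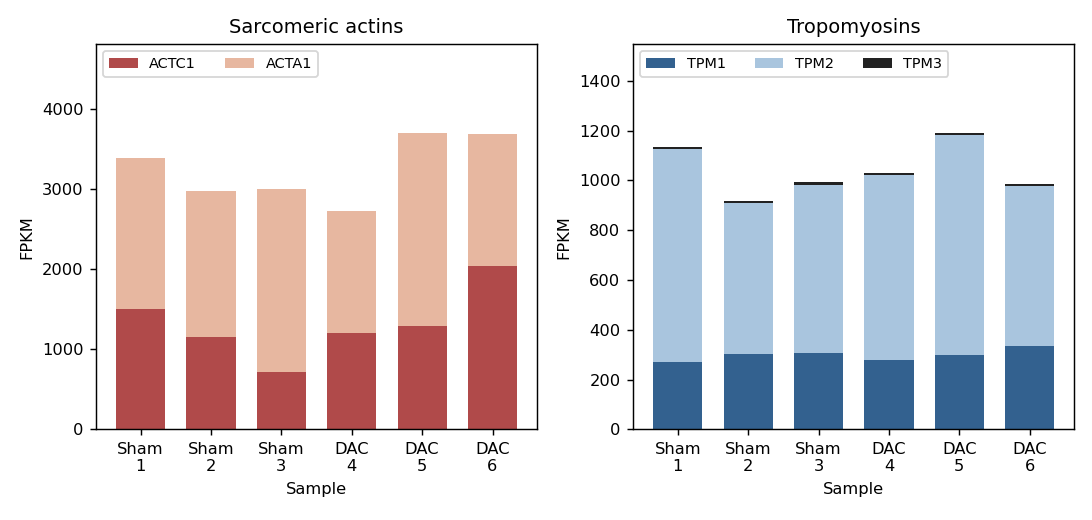
FPKM of the sarcomeric actins (left) and of the tropomyosins (right) in each of the 6 minipigs, stacked by gene. ACTC1 is the smaller part of the actin bar in every minipig but DAC 6, and TPM2 makes up 65.1% to 75.4% of the tropomyosin bar.

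The other actins of the tissue were lower and did not differ by the test. ACTA2, the actin of vascular smooth muscle, had 21.0 to 30.4 FPKM in sham and 25.4 to 36.5 FPKM in DAC, with a log2 difference of 0.19 (SE 0.19, adjusted P = 0.790) that was 0.019 without Sham 1 and 0.070 without DAC 5. The study itself reported this transcript, as α-SMA, significantly higher in DAC left ventricles by RT-qPCR. That assay was normalized to β-actin and used more minipigs a group. The cytoplasmic actins ACTB and ACTG1 differed by -0.03 (SE 0.20, but 0.01 after quantile normalization) and 0.03 (SE 0.15). The ACTG1 gene model spans 162868 bases, while ACTG1 of the RefSeq annotation lies at 1320355 to 1323219. It overlaps other genes on both strands, among them NPLOC4 on the same strand with 14.2 to 18.5 FPKM. The ACTG1 level is thus less certain. ACTG2, the enteric smooth muscle actin at about 1 FPKM, differed by -0.21 (SE 0.25). The ACTG2 difference was between -0.46 and -0.04 without Sham 3, DAC 4 or DAC 5. When any other sample was left out, ACTG2 did not pass the filter. The ratio of sarcomeric actin to MYH7, the beta myosin heavy chain of the thick filament, was 1.56 to 1.75 in sham and 1.41 to 2.08 in DAC (exact permutation test, P = 0.4).

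Among the tropomyosins, TPM2 was the most abundant transcript and TPM1 the most even one. TPM1, the alpha tropomyosin (ENSSSCG00000004570, chromosome 1, 108986981 to 109019440, minus strand), had 272, 303 and 306 FPKM in sham and 277, 297 and 335 FPKM in DAC. TPM2, the beta tropomyosin (ENSSSCG00000005316, chromosome 1, 236402247 to 236410471, minus strand), had 854, 607 and 678 FPKM in sham and 744, 887 and 642 FPKM in DAC. In both genes the groups overlapped, with log2 differences of 0.04 (SE 0.11, 95% interval -0.23 to 0.31) for TPM1 and 0.09 (SE 0.17, 95% interval -0.32 to 0.50) for TPM2. TPM2 exceeded TPM1 in every minipig: the ratio TPM2/TPM1 was 3.14, 2.0 and 2.21 in sham and 2.69, 2.99 and 1.91 in DAC, a log2 difference of 0.05 with an SE of 0.28 (exact permutation test, P = 1). The highest ratio was that of Sham 1 and the lowest that of DAC 6.

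TPM3, which codes for the tropomyosin of slow muscle and for short cytoplasmic forms, stayed 33.1-fold to 43.8-fold below TPM1. It had 6.21, 7.56 and 9.25 FPKM in sham and 7.29, 6.94 and 8.41 FPKM in DAC (ENSSSCG00000006556, chromosome 4, 95542472 to 95572938, plus strand). The log2 difference was -0.01 (SE 0.15, 95% interval -0.37 to 0.35), the smallest of the 9, and it turned to between 0.01 and 0.03 under each of the 3 other scalings. TPM4, a mostly cytoplasmic tropomyosin, had 29.3, 38.4 and 24.5 FPKM in sham and 32.7, 35.3 and 50.2 FPKM in DAC. DAC 6 was the highest, and the log2 difference was 0.35 (SE 0.21, limma, adjusted P = 0.671); without Sham 2 it was 0.51 and was called, while it was 0.16 without DAC 6 and 0.20 without Sham 3. The tropomyosin genes are close relatives, and the table gives 1 value a gene, so their muscle and cytoplasmic splice forms were not separated. Tropomyosin to sarcomeric actin was 0.309 to 0.335 in sham and 0.268 to 0.378 in DAC (exact permutation test, P = 0.8).

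TNNT2, cardiac troponin T, was the most abundant thin filament transcript and spread widely in both groups. Its FPKM were 3593, 4616 and 4953 in sham and 5915, 3849 and 4303 in DAC (ENSSSCG00000023031, chromosome 10, 23749335 to 23763396, minus strand). DAC 4 was the highest sample, while DAC 5 and DAC 6 lay within the sham range. The log2 difference was 0.08 with an SE of 0.20 (95% interval -0.38 to 0.55, limma, adjusted P = 0.920), but it was -0.10 without DAC 4 and -0.02 after quantile normalization. By contrast TNNC1, the troponin C of cardiac and slow muscle (ENSSSCG00000011441, chromosome 13, 34591210 to 34594339, minus strand), was the steadiest member.

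TNNC1 had 2111, 2374 and 2313 FPKM in sham and 2302, 2137 and 2189 FPKM in DAC, with 1.12 times between the lowest and the highest sample. Its within-group SD of 0.074 on the log2 scale ranked 288 of the 314 genes of at least 100 FPKM. The log2 difference was -0.04 with an SE of 0.10 (95% interval -0.27 to 0.20, limma, adjusted P = 0.937). After quantile normalization it was -0.23 and was called, and with the mitochondrially encoded genes left out it was 0.0090, so its direction depended on the scaling.

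TNNI3, cardiac troponin I (ENSSSCG00000043687, chromosome 6, 59366828 to 59382728, minus strand), had 663, 841 and 666 FPKM in sham and 762, 777 and 666 FPKM in DAC. The DAC values fell inside the sham range, and the log2 difference was 0.03 with an SE of 0.13 (95% interval -0.29 to 0.34, limma, adjusted P = 0.964). The transcripts of the troponin subunits were far from equal in level, although the complex holds the subunits in equal numbers. TNNT2/TNNI3 was 5.42 to 7.44 in sham and 4.96 to 7.76 in DAC, TNNC1/TNNI3 was 2.82 to 3.47 in sham and 2.75 to 3.29 in DAC, and TNNC1/TNNT2 was 0.467 to 0.588 in sham and 0.389 to 0.555 in DAC. The exact permutation P of these ratios was 0.9, 0.7 and 0.6, with overlapping groups in each. The log2 difference of TNNC1/TNNI3 depended on the scaling, at -0.06 as deposited and -0.32 after quantile normalization.

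TNNI1, the slow skeletal and fetal troponin I, was at most 0.186 FPKM in sham minipigs and uneven in DAC minipigs. It had 0.0463, 0.186 and 0.118 FPKM in Sham 1 to 3, 1.12 FPKM in DAC 4 and 3.70 FPKM in DAC 6, and was listed at 0 in DAC 5 (ENSSSCG00000024061, chromosome 10, 23788279 to 23804083, minus strand). So DAC 4 and DAC 6 lay above every sham sample and DAC 5 below every one. With values over 1 FPKM in 2 samples only, the gene did not pass the filter; in a fit of all genes without a filter the log2 difference was 0.95 with an SE of 0.49 (95% interval -0.21 to 2.1, limma, adjusted P = 0.651). For each 1000 FPKM of TNNI3 there were 0.0699, 0.221 and 0.177 FPKM of TNNI1 in sham and 1.47, 0 and 5.56 FPKM in DAC (exact permutation test, P = 0.4). TNNI1 was thus at most 0.553% of the troponin I transcripts, in DAC 6, and the adult isoform made up the rest in every minipig.

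Of the 5 atrial markers measured, MYL4 and SLN had the same order among the DAC minipigs as TNNI1, and TBX5, KCNJ3 and NR2F2 did not. MYL4, the atrial essential light chain, had 2.03, 3.79 and 1.08 FPKM in sham and 9.22, 0.780 and 17.6 FPKM in DAC. SLN, the atrial calcium pump inhibitor sarcolipin, had 0.278, 1.01 and 0.403 FPKM in sham and 1.44, 0.932 and 9.83 FPKM in DAC. For both, DAC 6 was the highest, DAC 4 next and DAC 5 the lowest of the DAC samples, as for TNNI1. In DAC 4 to 6, TBX5 had 25.5, 18.1 and 25.5 FPKM, KCNJ3 24.0, 22.3 and 21.7 FPKM and NR2F2 4.93, 5.91 and 6.87 FPKM. Of the 8 atrial markers listed, the 5 measured had 0 called (8.51% of all genes tested), and their sum was 50.2 to 56.8 FPKM in sham and 48.1 to 81.4 FPKM in DAC. Their part in the TNNI1 values was not tested.

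**Figure D3:**
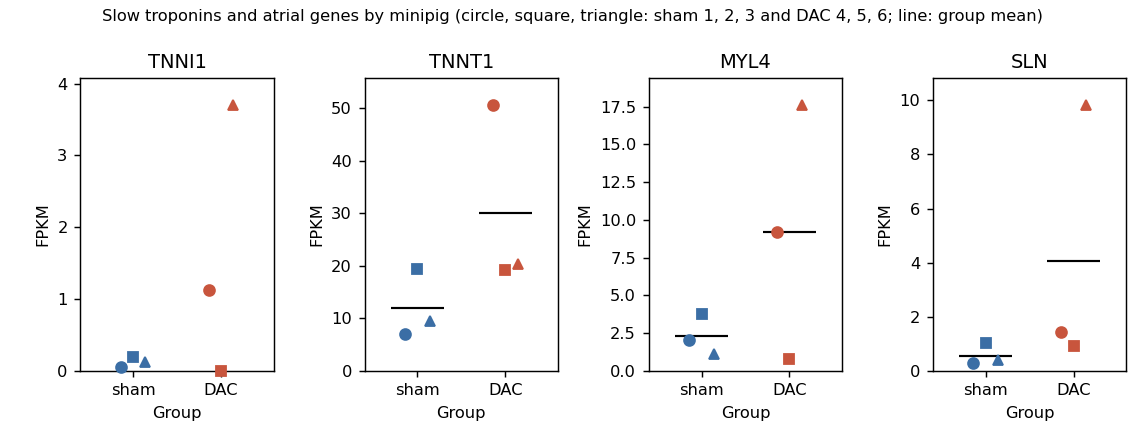
FPKM (linear axes from 0) of TNNI1, TNNT1, MYL4 and SLN, 1 point a minipig, with lines at the group means except for TNNI1. DAC 6 (triangle) is highest for TNNI1, MYL4 and SLN, and DAC 4 (circle) is highest for TNNT1.

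TNNT1, slow skeletal troponin T, was the isoform with the largest difference. It had 6.94, 19.4 and 9.58 FPKM in sham and 50.6, 19.2 and 20.3 FPKM in DAC (ENSSSCG00000025353, chromosome 6, 59347582 to 59365589, minus strand). DAC 4 stood far above the rest, and Sham 2 lay just above DAC 5, so the groups overlapped. The mean rose from 12 ± 6.58 FPKM to 30.1 ± 17.8 FPKM (SD, n = 3 each), a log2 difference of 1.23 with an SE of 0.45 (95% interval 0.16 to 2.30, called by limma, adjusted P = 0.557). The call was lost without Sham 1 (log2 difference 0.94), without Sham 3 (1.14), without DAC 4 (0.79) and with the variance of the gene estimated on its own. TNNT1 was the 1 gene called among the 6 other actin, troponin and tropomyosin isoforms tested, where 3.25% of all genes tested were called higher. Its 5′ end lies 1238 bases from the 3′ end of TNNI3 on the same strand, and TNNT2 lies 24882 bases from TNNI1. The minipig with the most TNNT1, DAC 4, was not the one with the most TNNI1, DAC 6. Skeletal muscle markers were few, with 3 of 12 measured and sums of 6.91 to 14.0 FPKM in sham and 3.82 to 11 FPKM in DAC. Most of the sum was CASQ1, with 9.45, 6.28 and 13.0 FPKM in sham and 8.70, 3.20 and 10.2 FPKM in DAC. MYL1 had 0.0510, 0.0453 and 0.299 FPKM in sham and 1.23, 0.156 and 0.146 FPKM in DAC. MYBPC2 had 0.567, 0.592 and 0.754 FPKM in sham and 0.944, 0.465 and 0.684 FPKM in DAC. DAC 4 was thus highest for the low MYL1 and MYBPC2, as for TNNT1, and Sham 3 for CASQ1. Their part in the TNNT1 values was not tested.

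LMOD2 (ENSSSCG00000016605, chromosome 18, 23803661 to 23812481, minus strand) had 386, 573 and 418 FPKM in sham and 538, 570 and 467 FPKM in DAC. Every DAC sample lay above Sham 1 and Sham 3 and below Sham 2. The means were 459 ± 99.6 FPKM and 525 ± 52.9 FPKM (SD, n = 3 each), a log2 difference of 0.21 with an SE of 0.17 (95% interval -0.19 to 0.61, limma, adjusted P = 0.739). Without Sham 2 it was 0.38 and was called by limma, and without Sham 1 it was 0.097 and was not. LMOD2 to sarcomeric actin was 0.114 to 0.193 in sham and 0.127 to 0.198 in DAC (exact permutation test, P = 0.7). Of the 9 pointed-end and filament length genes tested 0 were called, where 8.51% of all genes tested were. LMOD1, the smooth muscle leiomodin, had 2.95 to 4.86 FPKM in sham and 4.62 to 8.65 FPKM in DAC (log2 difference 0.59, SE 0.26, not called, limma, adjusted P = 0.592).

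**Figure D4:**
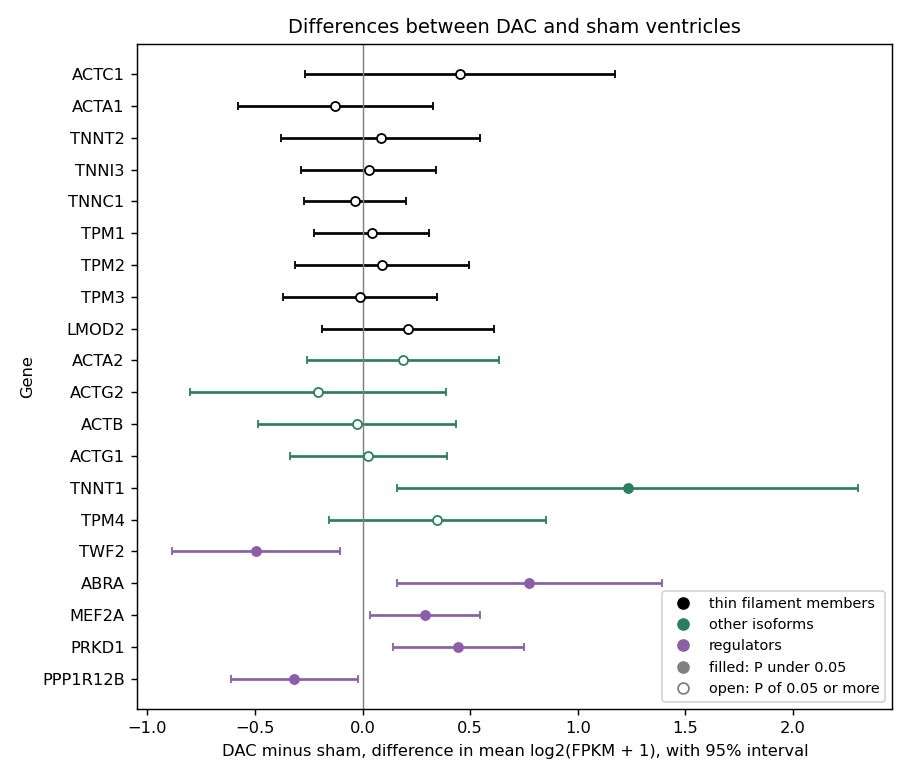
Difference DAC minus sham in mean log2(FPKM + 1) with its 95% interval for the 9 thin filament genes tested (black), 6 other isoforms (green) and 5 partner genes (purple), filled where the unadjusted P was under 0.05. The intervals of all 9 members include 0, and TNNT1 is the 1 isoform whose interval does not.

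As a whole the 10 genes took 4.0%, 4.27% and 4.27% of all FPKM in Sham 1 to 3 and 4.71%, 3.96% and 4.21% in DAC 4 to 6 (exact permutation test, P = 0.9). With the mitochondrially encoded genes left out of the sum, the shares were 5.27%, 5.71% and 5.71% in sham and 6.46%, 5.89% and 5.78% in DAC. Every DAC share then lay above every sham share, which gives P = 0.1, the smallest this exact test can reach. Across all 13 ratios of isoforms and subunits, 0 separated the groups and the smallest exact permutation P was 0.3 (adjusted P = 0.975), that of TPM4/TPM1.

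Proteins that build, anchor or modify the thin filament were examined as lists. Barbed-end capping and Z-disc anchoring genes had 0 of 14 called, where 8.51% of all genes tested were, with a median log2 difference of 0.07. Of 20 genes of actin assembly and turnover 1 was called lower, a share close to the 5.27% of all genes tested. This gene, TWF2, a twinfilin that binds actin monomers and caps filaments, had 27.3, 28.7 and 27.1 FPKM in sham and 20.8, 14.9 and 23.3 FPKM in DAC, with no overlap of the groups. Its log2 difference was -0.50 (SE 0.17, limma, adjusted P = 0.531). The call was lost without Sham 2 and with the variance of the gene on its own.

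Serum response factor (SRF) and its coactivators drive the sarcomeric actin genes, and 2 of the 13 regulators tested were called, both higher in DAC, where 3.25% of all genes tested were higher. ABRA, a sarcomeric activator of SRF signalling, had 60.8, 87.8 and 42.1 FPKM in sham and 91.9, 99.6 and 125 FPKM in DAC. All DAC samples lay above all sham samples, the log2 difference was 0.77 (SE 0.26, limma, adjusted P = 0.542), and the call was lost without Sham 3, without DAC 6 and with the variance of the gene on its own. MEF2A, a transcription factor of muscle genes, had 30.3, 30.2 and 28.8 FPKM in sham and 40.7, 33.3 and 36.2 FPKM in DAC, a log2 difference of 0.29 (SE 0.11, limma, adjusted P = 0.563), and kept its call without DAC 5 alone among the 6 left-out samples. SRF itself was below every sham sample in every DAC sample, yet was not called, and had 40.0, 35.0 and 35.1 FPKM in sham and 30.3, 31.5 and 33.1 FPKM in DAC (log2 difference -0.21, limma, adjusted P = 0.615).

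The last list held kinases and phosphatases that act on the troponins, tropomyosin or myosin, with their regulatory subunits and an inhibitor. Of these 25 genes, 1 was higher and 1 lower in DAC, where 3.25% and 5.27% of all genes tested were. PRKD1, protein kinase D, which phosphorylates cardiac troponin I, had 2.36, 3.38 and 2.67 FPKM in sham and 4.33, 3.89 and 4.23 FPKM in DAC. The groups did not overlap, and the log2 difference was 0.45 (SE 0.13, limma, adjusted P = 0.505) with P under 0.05 in each alternative that gave it a value. PPP1R12B, a targeting subunit of myosin phosphatase, had 140, 117 and 156 FPKM in sham and 108, 110 and 111 FPKM in DAC, a log2 difference of -0.32 (SE 0.13, limma, adjusted P = 0.584). Its call was lost without any 1 of 5 samples, under 3 other scalings and with the variance of the gene on its own.

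**Figure D5:**
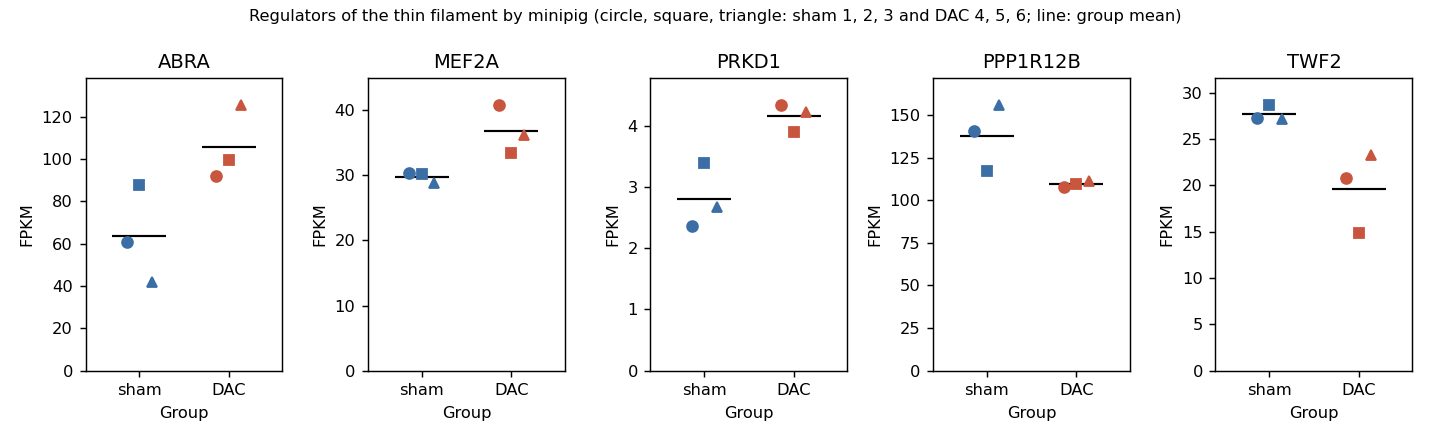
FPKM (linear axes from 0) of the 5 called partner genes, 1 point a minipig, with lines at the group means. DAC points lie above sham points for ABRA, MEF2A and PRKD1 and below them for PPP1R12B and TWF2.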

How the data were processed

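The authors deposited 1 table of FPKM, with a column for each minipig and no pooling. The submitters' processing notes name HISAT2 and the build susScr11, and the quantification program and its handling of shared reads are not given in the sources used here. Total RNA was the input, and the kit was NEBNext Ultra. Low values showed no steps of whole reads (at most 6 of 3459 or more low genes shared a ratio between samples), so depth is unknown.

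The difference in log2(FPKM + 1) was tested with limma 3.58.1 in R 4.3.3 (moderated variance with a trend) on the 11029 genes of 13288 with at least 1 FPKM in at least 3 samples, at an unadjusted P under 0.05, with Benjamini-Hochberg adjustment. Fold changes on this scale understate changes of low genes. The step was tested on simulated data. Ratios and shares were compared by exact two-sided permutation tests, adjusted over the 13 ratios. P-values set each group difference against the spread between these samples, in limma with variances moderated over all genes.

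The members and lists were chosen with earlier results of these data known. Of the 10 members, 9 were found by the table's symbol and 1 by identifier. The text names the members, their other isoforms, partner genes with P under 0.05 and, for 5 members, the genes of at least 10 FPKM nearest in profile. LMOD1, SRF, RYR2, MYL4, SLN, TBX5, KCNJ3, NR2F2, CASQ1, MYL1 and MYBPC2 were named after their values were seen. TNNT3, TNNI2, TNNC2 and TMOD1 were not analysed here. The gene tests were repeated with no filter, a minimum of 5 FPKM, a pseudocount of 0.1, median scaling, quantile normalization, mitochondrially encoded genes left out, each gene's own variance and sample weights, 12 of the ratios with a pseudocount of 1 and quantile normalization, and the share with mitochondrially encoded genes left out. Each sample was left out in turn for all of them, except where a gene then no longer passed the filter. The linear ratio of TNNI1 to TNNI3 was chosen after seeing the data. Figures were drawn with matplotlib 3.10.9.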

Additional observations from a re-analysis of the deposited data

How the results depend on the processing

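The depth behind the FPKM is unknown and 3 minipigs a group limit the precision. Small differences could thus not be detected, and larger ones could be missed in genes with a wide spread such as ACTC1. No paired analysis was possible because the sample labels share no replicate numbers. The count of called members was 0 in every alternative but 3: it was 1 after quantile normalization (TNNC1), and it ranged from 0 to 1 when a sample was left out, with 1 without Sham 2 (LMOD2) and 1 without DAC 5 (ACTA1). Of all genes, 939 were called, and 579 with a minimum of 5 FPKM, where fewer genes were tested. When a sample was left out, 595 to 1019 were called, the fewest without Sham 1 and 625 without Sham 3. The difference in the members' share of summed FPKM was 0.110 percentage points, 0.480 without the mitochondrially encoded genes and -0.097 to 0.277 when a sample was left out.

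Log2 differences near 0 changed sign. After quantile normalization TNNT2 was -0.025, TPM3 0.020 and ACTB 0.012. With the mitochondrially encoded genes left out TNNC1 was 0.0090, TPM3 0.028 and ACTB 0.018. TPM3 was 0.011 after median scaling and ACTB 0.0044 with sample weights. When a sample was left out, ACTA1 ranged from -0.33 to 0.0024, TNNT2 from -0.095 to 0.21, TNNI3 from -0.029 to 0.14, TPM1 from -0.033 to 0.10, TPM2 from -0.030 to 0.23, TPM3 from -0.14 to 0.12, ACTB from -0.18 to 0.17 and ACTG1 from -0.092 to 0.18. The cause of these changes was not tested. ACTC1, LMOD2 and TNNT1 kept their sign in every alternative run, and TNNI1 did where it was computed. The size of the TNNI1 difference depended on single minipigs. For each 1000 FPKM of TNNI3 it was 2.19 FPKM, but 0.58 without DAC 6 and 3.36 without DAC 5.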

Other observations

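The genes whose level profile lay nearest to a member were found by the root mean square difference of centred log2(FPKM + 1) over the 6 samples, among 3447 genes with a mean of at least 10 FPKM. For ACTA1 these were ALAS1, the first enzyme of heme synthesis (0.063), and FBL, the nucleolar methyltransferase fibrillarin (0.068). ALAS1 had 62, 61.5 and 70.8 FPKM in sham and 53.6, 80.9 and 57.7 FPKM in DAC, highest in DAC 5 and lowest in DAC 4 as ACTA1 was. For TNNI3 they were PPP2R2A, a regulatory subunit of phosphatase PP2A (0.049), and TNFSF12, the cytokine TWEAK (0.056). For LMOD2 they were FZD5, a Wnt receptor (0.064), and TPT1 (0.075). For ACTC1 the nearest genes were farther away, HTRA3 (0.22) and the linker histone H1-4 (0.22). The distance is not scaled to how much a member itself varied. The root mean square from its own mean was 0.45 for ACTC1, 0.24 for ACTA1, 0.22 for LMOD2, 0.13 for TNNI3 and 0.80 for TNNI1.

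For TNNI1 the nearest were the transcription factor BHLHE40 (0.33) and PHLDA1 (0.35). BHLHE40 had 25.8, 24.8 and 20.8 FPKM in sham and 35.0, 20.9 and 57.6 FPKM in DAC, and PHLDA1 had 4.19, 6.75 and 5.77 FPKM in sham and 18.7, 3.73 and 21.3 FPKM in DAC. In both, DAC 6 was highest, DAC 4 next and DAC 5 within or below the sham range. Among the members other than TNNI1, which was left out of this comparison, TNNC1 and TPM1 were the closest pair (0.11) and ACTC1 and ACTA1 the farthest (0.61). These distances are descriptions over 6 samples that share their libraries.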
